A study of Arabidopsis thaliana with 24 samples.

Results

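Class III peroxidases were followed through the formation of interfascicular cambium in cultured stems of wild-type Arabidopsis thaliana. A list of 60 loci of this family was matched to the annotation of the Affymetrix ATH1 array. Each of 47 loci had 1 probe set naming that gene alone, and these 47 are the members described here. Another 7 loci shared their probe sets with other genes, and 6 had no probe set in the annotation used, among them PER4, PER64, PA2 (PRX53) and AT1G05250 (PRX2), which are not analysed here.

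Class III peroxidases are secreted haem enzymes of plants that act mostly in the cell wall. With hydrogen peroxide they oxidise phenolic compounds, which couples monolignols into lignin and cross-links wall phenolics and proteins, and in another reaction cycle they can produce reactive oxygen species that loosen the wall. In the stem they are best known for lignification of xylem and fibres, and many members also respond to wounding and attack.

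The series holds 24 arrays, 3 in each of 8 groups, which the labels call biological replicates. How many plants stand behind a replicate is not stated in those labels. Excised stem fragments were kept on plates of MS (Murashige and Skoog) medium with the synthetic auxin NAA (naphthaleneacetic acid) or on MS alone, and tissue was then taken by laser capture. The groups were the starch sheath after 2 days on NAA, the cambium after 5 days on NAA, the starch sheath after 2 and after 5 days on medium alone, the stem tissue after 2 and after 5 days on NAA, the untreated starch sheath, and the untreated stem tissue. The sheath is the starch-storing cell layer around the vascular cylinder, and the stated aim of the series was to find genes raised in the interfascicular region where the cambium forms. No group holds stem tissue on medium alone. At 5 days the NAA group is labelled cambium and the medium group sheath, so auxin and the type of cell captured there cannot be told apart.

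Values are log2 expression as deposited, without detection calls, so a low level is not known to be above background. Replicates correlated at 0.763 to 0.877 in the untreated sheath, 0.852 to 0.917 in the untreated stem and 0.917 to 0.972 in the other groups. Replicates 2 and 3 of the untreated sheath and replicate 3 of the untreated stem had a narrower spread over all probe sets (SD 0.955 to 1.08) than the other arrays (1.22 to 1.57), and their medians over all probe sets were 3.17 to 3.26. Of 3 endodermis markers only JKD (JACKDAW), a zinc finger gene of ground tissue, had a probe set naming it. JKD stood at 3.21 to 4.48 in the untreated sheath, against 2.80 to 3.12 in the untreated stem, and at 2.47 to 3.40 in the cultured groups. The untreated difference was not significant in limma (log2 1.00, adjusted p = 0.159). On NAA the sheath differed from the stem by log2 0.31 at 2 days and the cambium by -0.01 at 5 days, neither significant. None of the 9 xylem and fibre, 4 phloem, 3 cambium, 4 epidermis and 4 green cortex markers was named alone on a probe set. This refers to the annotation used, and whether the array carries probes for them was not checked. The part of other cell types in the results was therefore not tested.

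Most members varied little. The median over the whole table was 3.09, and 25 of the 47 members had all their group means below it, while 9 exceeded it in every group. Some group mean reached that median in 46.8% of the members, against 65.7% of all probe sets. The 8 group means ranged by 1 or more on the log2 scale in 9 members, which is 19.1% of them, against 25.8% of all probe sets. The median range was 0.51 over members, against 0.56 over all probe sets. The members lie on all 5 chromosomes, with 14 on chromosome 5, and form 3 pairs of neighbouring loci with no gene between them in the TAIR10.1 gene table: Prx37 (AT4G08770) with AT4G08780, AT5G19880 with AT5G19890, and AT5G58390 with AT5G58400.

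**Figure D1:**
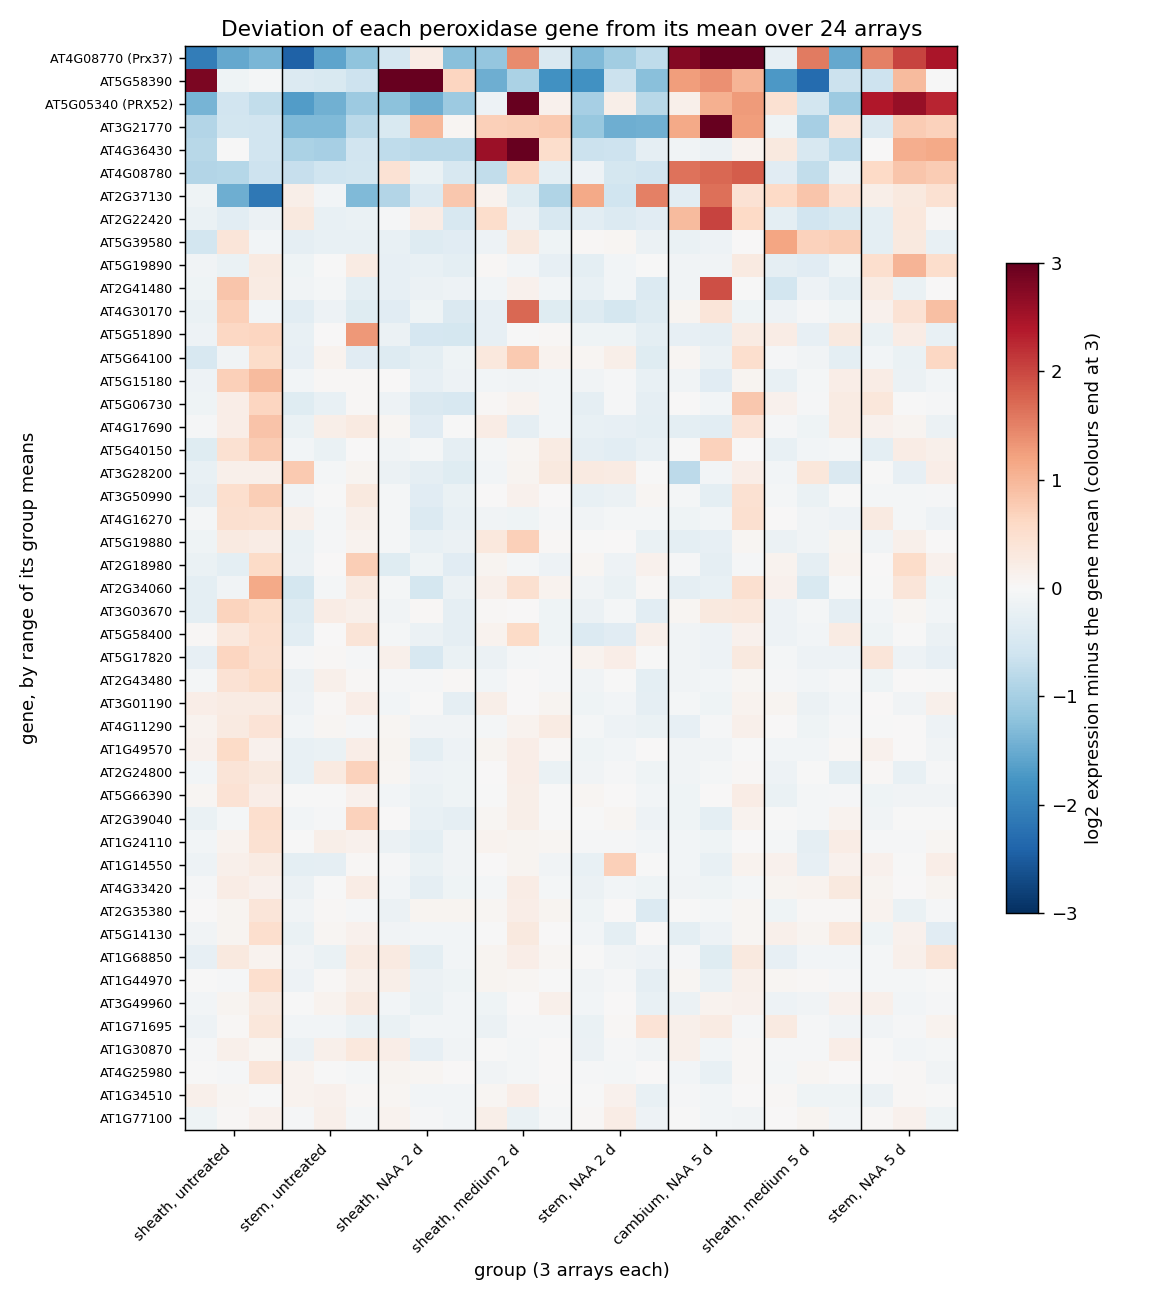
Deviation of each of the 47 measured peroxidase genes (vertical axis, ordered by the range of its group means) from its own mean over 24 arrays, in log2 units, with the 3 arrays of each group side by side (horizontal axis). The 9 genes whose group means range by 1 or more are at the top, and below them the 2 narrow arrays of the untreated sheath appear as mostly red columns.

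The 2-day comparison of NAA with medium alone asks what auxin changes in the sheath before a cambium is collected. A gene is said to have changed where limma's adjusted p, taken over all 22746 probe sets, was under 0.05. AT5G58390 was higher on NAA than on medium and AT4G36430 was lower, and the other 45 members did not pass. Over all probe sets 0.382% passed. The median difference was -0.18 over the members and -0.06 over all probe sets.

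AT5G58390 stood at 8.01, 8.83 and 5.60 in the sheath on NAA at 2 days, against 3.50, 4.01 and 3.14 in the sheath on medium. The groups did not overlap, and the third NAA array was well below the other two. The level was 15.2-fold higher on NAA (log2 difference 3.93 ± 0.74, SE, n = 3 and 3, limma adjusted p = 0.0225). In captured tissue, fewer cells of a type and less RNA per cell cannot be told apart. Leaving out single arrays ended this call in 5 of 6 cases, with differences between 3.25 and 4.87, the lowest without the second NAA array (adjusted p = 0.179). In the untreated sheath AT5G58390 stood at 7.79, 4.83 and 4.90, and the highest of these is the only array of that group without the narrow spread. The sheath on medium was lower than the untreated sheath by log2 differences of -2.29 at 2 days and -2.44 at 5 days, which did not pass (adjusted p = 0.085 and 0.0562).

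AT4G36430, a member of the set of peroxidases linked to lignin or xylem, differed the other way. Its level was 3.21, 3.16 and 3.16 in the sheath on NAA at 2 days, against 6.54, 7.65 and 4.50 on medium. The untreated sheath, at 3.15, 3.97 and 3.39, overlapped the NAA arrays and lay below all medium arrays. The NAA arrays lay close together and all below the medium arrays, which were widely spread. The level was 8.29-fold lower on NAA (log2 difference -3.05 ± 0.51, adjusted p = 0.0139). The call was lost without NAA replicate 2 (adjusted p = 0.0846) and without medium replicate 2 (log2 difference -2.34, adjusted p = 0.0643).

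Medium replicate 2 was the highest array of its group for 26 of the 47 members, against 36.0% of all probe sets. It was also high for PRX52 (AT5G05340), a peroxidase of stem lignification. PRX52 stood at 2.40, 2.16 and 2.55 in the sheath on NAA at 2 days, against 3.47, 7.37 and 3.77 on medium. The groups did not overlap, yet the difference did not pass (log2 -2.50 ± 0.68, adjusted p = 0.142). In all, 15 members lay below medium on every NAA array, against 13.4% of all probe sets, and 14 of these did not pass, among them AT5G64100 (log2 -0.67, adjusted p = 0.365) and AT5G19880 (log2 -0.51, adjusted p = 0.201).

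**Figure D2:**
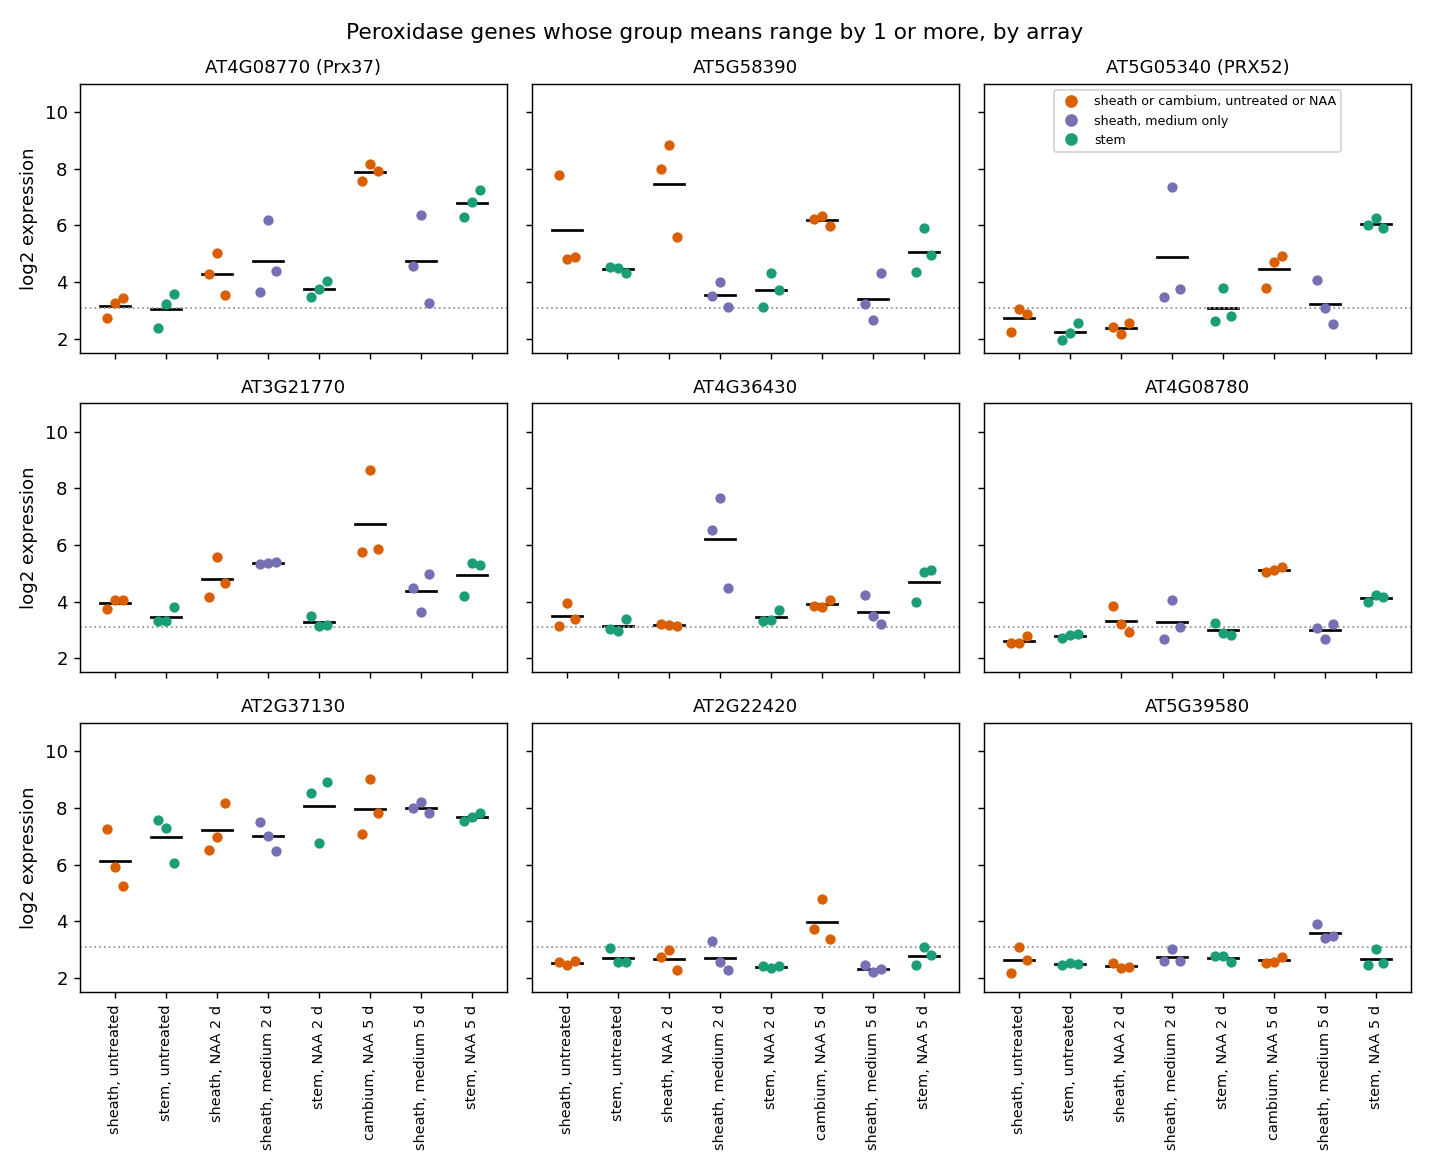
Log2 expression (vertical axis) of the 9 peroxidase genes whose group means range by 1 or more, with 3 arrays per group as points, the group mean as a black bar and the median of all values as a dotted line; orange is sheath or cambium (untreated or on NAA), purple sheath on medium alone and green stem. Prx37 and AT4G08780 are high in both 5-day NAA groups, PRX52 in the 5-day stem, and AT4G36430 in the sheath on medium at 2 days.

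At 5 days the cambium that formed on NAA was set against the sheath kept on medium. Prx37, AT4G08780, AT5G58390, AT3G21770 and AT2G22420 were higher in the cambium and AT5G39580 was lower. The other 41 members did not pass. Over all probe sets 3.49% passed. The median difference was 0.04 over the members and 0.01 over all probe sets.

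Prx37 is a wall peroxidase whose overexpression is known to stunt growth and alter wall phenolics. It stood at 7.56, 8.16 and 7.91 in the cambium, against 4.56, 6.36 and 3.27 in the sheath on medium at 5 days. Every cambium array was above every medium array, and the medium arrays differed widely. The level was 8.87-fold higher in the cambium (log2 difference 3.15 ± 0.64, adjusted p = 0.00721), and the call held when any 1 of the 6 arrays was left out. That call was lost in 2 of the 14 alternative settings (adjusted p up to 0.0908).

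AT4G08780, the neighbour of Prx37, had the smallest adjusted p among the members in this comparison. It stood at 5.05, 5.12 and 5.22 in the cambium, against 3.07, 2.68 and 3.22 in the sheath on medium. The spread within each group was far smaller than the gap between them. The level was 4.41-fold higher (log2 difference 2.14 ± 0.26, adjusted p = 8.27e-05), and the call held in all 14 alternative settings. Over the 8 group means Prx37 and AT4G08780 correlated at 0.963, and over the 24 arrays at 0.875; the points share arrays, and whether transcripts of one gene reach the probes of the other was not tested. For the other neighbours the correlation of the 8 group means was -0.15 (AT5G58390 and AT5G58400) and 0.098 (AT5G19880 and AT5G19890). AT5G58400 stayed between 2.111 and 3.098 on all 24 arrays and passed in none of the comparisons.

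AT5G58390, which was higher on NAA at 2 days, was also higher here. It stood at 6.22, 6.34 and 5.98 in the cambium, against 3.24, 2.65 and 4.31 in the sheath on medium at 5 days. The groups did not overlap. The level was 6.88-fold higher (log2 difference 2.78 ± 0.74, adjusted p = 0.0434), and the call was lost in 5 of the 6 fits without 1 array (differences 2.41 to 3.24). The highest adjusted p among these was 0.178, without medium replicate 2.

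AT3G21770 stood at 5.76, 8.64 and 5.88 in the cambium, against 4.49, 3.63 and 4.98 in the sheath on medium. The groups did not overlap, and the second cambium array lay far above the other two. The level was 5.24-fold higher (log2 difference 2.39 ± 0.56, adjusted p = 0.0193). Without cambium replicate 2 the difference was 1.45 and did not pass (adjusted p = 0.0789), nor did it without medium replicate 1 (adjusted p = 0.0576) or replicate 2 (adjusted p = 0.109).

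AT2G22420, a second member of the set linked to lignin or xylem, stood at 3.72, 4.79 and 3.37 in the cambium, against 2.47, 2.20 and 2.31 in the sheath on medium. All cambium arrays were higher, again with replicate 2 on top. The level was 3.11-fold higher (log2 difference 1.64 ± 0.30, adjusted p = 0.00274), and the call held without any 1 array. That call was lost in 2 of the 14 alternative settings (adjusted p up to 0.111). AT2G41480 (PRX25), a peroxidase of stem lignification, had the same high array: it stood at 2.92, 4.95 and 3.01 in the cambium, against 2.49, 2.87 and 2.74 on medium, and did not pass (log2 0.93 ± 0.36, adjusted p = 0.218). Over all 47 members, cambium replicate 2 was the highest of its group for 9 and replicate 3 for 36.

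AT5G39580 was the 1 member called lower in the cambium than on medium. It stood at 2.54, 2.58 and 2.76 in the cambium, against 3.91, 3.42 and 3.47 in the sheath on medium. All cambium arrays were lower, at levels not known to be above background. The level was 1.97-fold lower (log2 difference -0.98 ± 0.20, adjusted p = 0.00735); without medium replicate 1 it did not pass (log2 -0.82, adjusted p = 0.0564). Counting called members too, 9 of the 47 members had every cambium array above every medium array, and 3 had every one below. Over all probe sets the cambium was higher without overlap in 10.3% and lower in 8.89%. Of the members that did not pass, 6 had groups that did not overlap, 4 with the cambium higher and 2 with it lower. Beside PRX25 these included AT3G03670 (log2 0.37, adjusted p = 0.469), AT5G40150 (0.35, adjusted p = 0.62) and AT5G14130 (-0.32, adjusted p = 0.433).

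A measure of RNA quality differed between the groups of both comparisons. The 3' signal of the GAPDH control exceeded its 5' signal by 6.14 to 6.67 in the sheath on NAA at 2 days, against 6.71 to 7.43 on medium. At 5 days the excess was 6.17 to 7.15 in the cambium, against 5.52 to 6.25 in the sheath on medium, and these ranges overlapped. The 6 untreated arrays lay lower still, at 3.93 to 5.50. With this excess as a covariate, AT5G58390 and AT4G36430 still passed at 2 days. In that fit 7.83% of all probe sets passed, against 0.382% without the covariate. At 5 days 3 members passed with it, at a background of 3.39% of all probe sets. AT5G58390 (log2 2.48, adjusted p = 0.145), AT3G21770 (log2 2.12, adjusted p = 0.0886) and AT5G39580 (log2 -0.79, adjusted p = 0.0568) no longer did.

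The difference between NAA and medium was then compared between the time points. It was more positive at 5 days than at 2 days for AT4G08780 (log2 2.09 ± 0.37, adjusted p = 0.00938) and AT4G36430 (log2 3.31 ± 0.72, adjusted p = 0.0309), and 45 members did not pass; 1.01% of all probe sets passed. At 2 days AT4G08780 stood at 3.85, 3.21 and 2.94 on NAA, against 2.68, 4.05 and 3.11 on medium, so those groups overlapped. At 5 days AT4G36430 stood at 3.86, 3.80 and 4.07 in the cambium, against 4.25, 3.50 and 3.20 on medium, and these overlapped as well. The AT4G08780 call held in all 16 alternatives, while that of AT4G36430 was lost in 9 of the 12 fits without 1 array, with adjusted p up to 0.0873. Prx37 (log2 3.60, adjusted p = 0.0634), PRX52 (log2 3.74, adjusted p = 0.0708) and AT2G22420 (log2 1.69, adjusted p = 0.0581) did not pass.

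**Figure D3:**
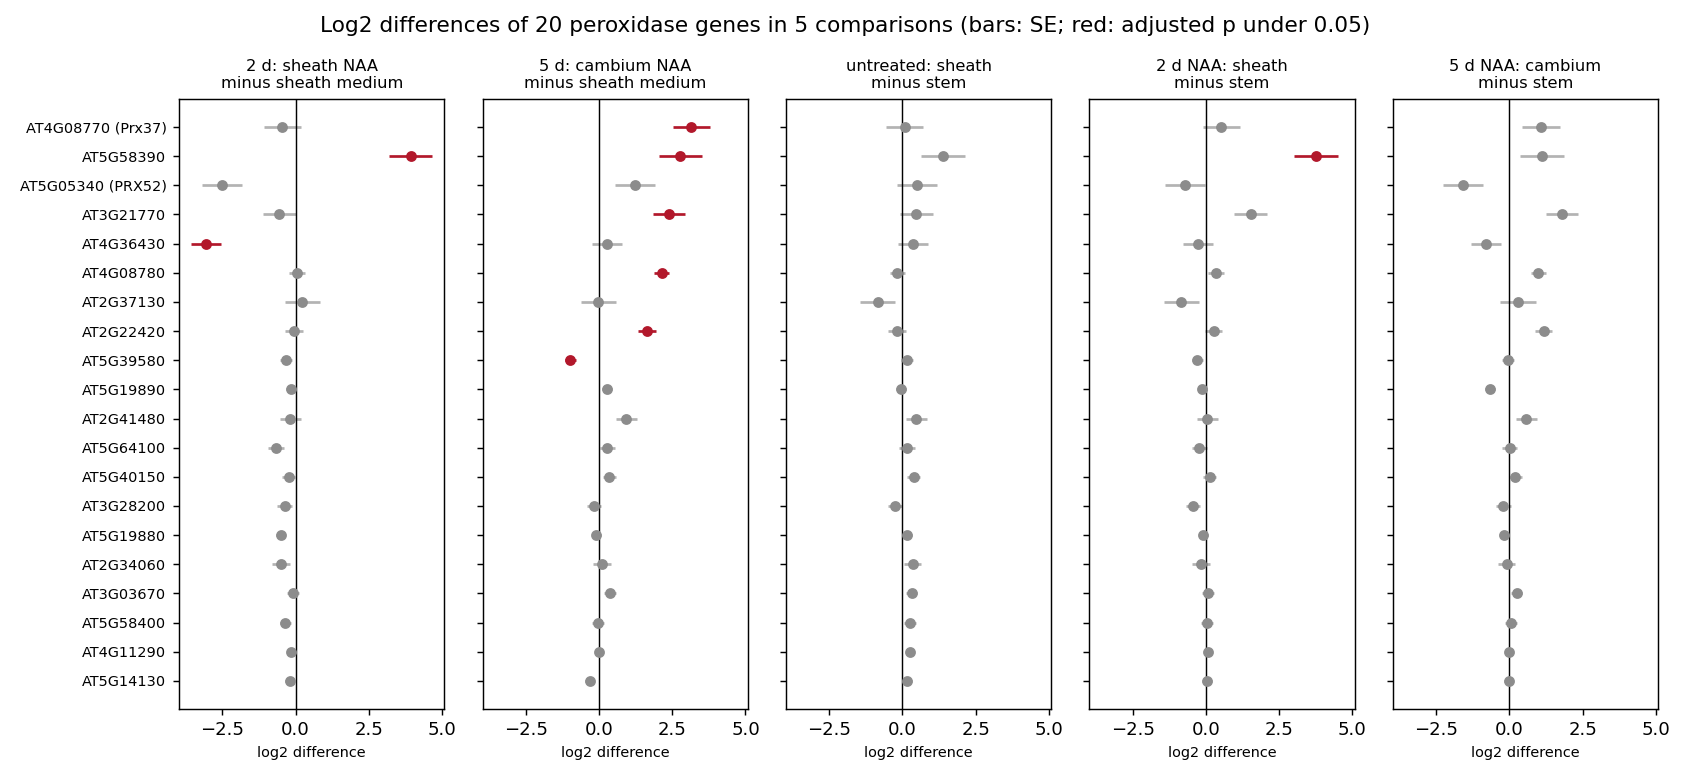
Log2 differences (horizontal axis, SE as bars, n = 3 arrays per group) of 20 peroxidase genes in the 5 comparisons of auxin with medium and of sheath or cambium with stem; red marks an adjusted p under 0.05. The 5-day cambium panel has 6 red points, with 2 in the 2-day auxin panel, 1 in the 2-day sheath against stem panel and none in the others. All are from the unpaired main fit, and the 1 in the sheath against stem panel did not pass with replicates as a block.

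Comparing sheath or cambium with stem asks which genes differ between the interfascicular layer and the tissue around it. In untreated stems 0 of 47 members passed with limma, at a background of 0.202%, and 4 had an unadjusted p under 0.05. Here and below, the share of all probe sets under that unadjusted threshold was not counted, so those counts have no background. AT5G58390 stood at 7.79, 4.83 and 4.90 in the untreated sheath, against 4.54, 4.49 and 4.34 in the untreated stem. The sheath arrays were all higher, but the difference did not pass (log2 1.38 ± 0.74). AT4G11290 was also higher on every sheath array and did not pass (log2 0.27, adjusted p = 0.318). Without untreated sheath replicate 1, which leaves the 2 narrow arrays in that group, 6 members passed, at a background of 17.3% of all probe sets in that fit.

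After 2 days on NAA, AT5G58390 was the single member that differed in the unpaired main fit, where 0.246% of all probe sets passed. It stood at 8.01, 8.83 and 5.60 in the sheath, against 3.14, 4.31 and 3.70 in the stem. The groups did not overlap. The level was 13.6-fold higher in the sheath (log2 difference 3.77 ± 0.74, adjusted p = 0.0385). Same-numbered replicates deviated together in this comparison. With the replicate number as a block AT5G58390 did not pass (adjusted p = 0.0558 over all 24 arrays and 0.15 over the 6 compared). The call was also lost in 5 of the 6 fits without 1 array, at most without sheath replicate 2 (log2 3.09, adjusted p = 0.274). The tissue difference on NAA was then tested against that in untreated stems. Here 0 members passed in limma, at a background of 0.00879%, and 2 had an unadjusted p under 0.05. For AT5G58390 this change was 2.38 ± 1.05 (adjusted p = 0.767). AT3G21770 stood at 4.16, 5.59 and 4.67 in the sheath on NAA, against 3.49, 3.16 and 3.17 in the stem, without overlap, and did not pass (log2 1.53 ± 0.56, adjusted p = 0.759).

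After 5 days on NAA, 0 of 47 members passed with limma between cambium and stem, where 0.356% of all probe sets did, and 5 had an unadjusted p under 0.05. AT2G22420 stood at 3.72, 4.79 and 3.37 in the cambium, against 2.46, 3.08 and 2.81 in the stem (log2 1.18 ± 0.30, adjusted p = 0.122). AT4G08780 stood at 5.05, 5.12 and 5.22 in the cambium, against 3.996, 4.24 and 4.17 in the stem (log2 1.00 ± 0.26, adjusted p = 0.16). Both had every cambium array above every stem array. AT3G21770 was likewise higher on each cambium array (log2 1.80 ± 0.56, adjusted p = 0.322). PRX52 lay on the stem side, at 3.79, 4.71 and 4.92 in the cambium, against 6.02, 6.25 and 5.92 in the stem (log2 -1.59 ± 0.68, adjusted p = 0.792). AT5G19890 did so too, at 2.52, 2.54 and 2.91 in the cambium, against 3.13, 3.65 and 3.15 in the stem (log2 -0.66 ± 0.16, adjusted p = 0.0996). Without cambium replicate 3, which was highest for 36 members and for 45.1% of all probe sets, 2 members passed, at a background of 0.484%. Against the untreated tissue difference 0 members passed in limma (background 0.0308%), with 6 at an unadjusted p under 0.05.

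Each cultured group was finally set against its untreated tissue. These comparisons share the untreated arrays, so their values are given side by side. The GAPDH excess separated every cultured array (5.52 to 7.43) from every untreated array (3.93 to 5.50), and the 3 narrow arrays are all untreated. A fit with this excess as a covariate therefore cannot tell culture from RNA quality here, whether or not a call is lost. In the cambium Prx37, AT4G08780, AT3G21770 and AT2G22420 rose over the untreated sheath and 0 members fell. Over all 22746 probe sets 8.58% passed there, 1365 higher and 587 lower. Prx37 stood at 7.56, 8.16 and 7.91 in the cambium, against 2.73, 3.25 and 3.43 in the untreated sheath, a 26.7-fold difference (log2 4.74 ± 0.64, adjusted p = 0.000156). AT4G08780 was 5.67-fold higher (adjusted p = 1.25e-05), AT3G21770 6.99-fold (adjusted p = 0.00371) and AT2G22420 2.68-fold (adjusted p = 0.00507). The untreated arrays of each lay below all cambium arrays. With the GAPDH excess as a covariate AT4G08780 still passed (log2 2.44, adjusted p = 0.0455), while Prx37 (log2 3.67, adjusted p = 0.162), AT3G21770 (log2 2.07, adjusted p = 0.359) and AT2G22420 (log2 1.09, adjusted p = 0.361) did not. AT2G22420 was also lost without the 3 narrow arrays (log2 1.39, adjusted p = 0.0832).

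The stem after 5 days on NAA held 4 members that rose over the untreated stem and 0 that fell. Over all 22746 probe sets 4% passed, 540 higher and 370 lower. PRX52 stood at 6.02, 6.25 and 5.92 in the stem on NAA, against 1.95, 2.20 and 2.54 in the untreated stem. This was the widest gap among the members there, 14.3-fold (log2 3.84 ± 0.68, adjusted p = 0.00266). Prx37 stood at 6.30, 6.83 and 7.25 in the stem on NAA, against 2.37, 3.22 and 3.59 in the untreated stem (13.3-fold, log2 3.73 ± 0.64, adjusted p = 0.0019). AT4G08780 was 2.53-fold higher (adjusted p = 0.00599) and AT5G19890 1.56-fold (adjusted p = 0.0265). The AT5G19890 call was lost in 3 of 6 fits without 1 array: without 5-day stem replicate 2 (log2 0.47, adjusted p = 0.167) and without untreated stem replicate 1 or 2 (adjusted p = 0.0817 and 0.0816). With the GAPDH covariate PRX52 (log2 3.89, adjusted p = 0.0492) and AT5G19890 (log2 1.16, adjusted p = 0.00453) passed in the stem. Prx37 (log2 2.93, adjusted p = 0.0882) and AT4G08780 (log2 1.30, adjusted p = 0.0782) did not. Against untreated tissue Prx37 passed with the covariate in neither 5-day NAA tissue, but there the covariate and culture cannot be told apart. The Prx37 call in the cambium against medium held with the covariate. The sheath on medium at 5 days was above the untreated sheath for Prx37 by log2 1.59, which did not pass (adjusted p = 0.139). After 2 days on NAA 0 stem members passed in limma, also 0 at an unadjusted p under 0.05, where 3.23% of all probe sets passed.

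On medium alone, 904 of 22746 probe sets passed as higher than in the untreated sheath and 220 as lower at 2 days. At 5 days 983 passed as higher and 460 as lower. Among the members 1 rose and 0 fell at each time. At 2 days it was AT4G36430, at 6.54, 7.65 and 4.50 on medium, against 3.15, 3.97 and 3.39 in the untreated sheath (6.62-fold, adjusted p = 0.00338; 4.94% of all probe sets passed). At 5 days it was AT5G39580, at 3.91, 3.42 and 3.47 on medium, against 2.18, 3.104 and 2.65 in the untreated sheath (1.94-fold, adjusted p = 0.00771; 6.34% passed). Neither pair of groups overlapped. With the GAPDH covariate AT4G36430 no longer passed (log2 3.76, adjusted p = 0.089) and AT5G39580 did (log2 1.29, adjusted p = 0.0277). Without medium replicate 1 at 5 days AT5G39580 did not pass (log2 0.80, adjusted p = 0.0503). After 5 days on medium AT4G36430 stood at 4.25, 3.50 and 3.20. It stood at 3.97, 5.05 and 5.11 in the 5-day stem on NAA, against 3.02, 2.96 and 3.40 in the untreated stem, and did not pass there (log2 1.58, adjusted p = 0.099).

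Over all 22746 probe sets 11.7% passed after 2 days on NAA against the untreated sheath, 1699 higher and 973 lower. The median of all differences was -0.11. Among the members 0 rose and 3 fell. These were PRX72 (AT5G66390), a peroxidase of lignification (log2 -0.38, adjusted p = 0.0367), AT5G15180 (log2 -0.63, adjusted p = 0.047) and AT4G16270 (log2 -0.52, adjusted p = 0.0496); they were chosen for naming after their values were seen. The member median was 2.99 and 3.04 on the narrow arrays of the untreated sheath, against 2.56 on its replicate 1. Without the 3 narrow arrays 0 of them passed, and AT5G15180 was 0.02 higher on NAA. Without untreated sheath replicate 1, 19 members passed, 17 of them lower on NAA, at a background of 36% of all probe sets in that fit.

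AT2G37130 stood between 5.23 and 9.04 on all arrays, the range of the untreated sheath being 5.23 to 7.25 and that of the cambium 7.08 to 9.04. It passed in no comparison; cambium exceeded untreated sheath by log2 1.85 ± 0.61 (adjusted p = 0.0646), and the sheath on medium at 5 days exceeded the untreated sheath by 1.88 ± 0.61 (adjusted p = 0.0707). AT3G28200 and AT2G34060 likewise passed nowhere.

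The set linked to lignin or xylem holds 10 loci, 7 of them measured. At 2 days 1 of the 7 was lower on NAA than on medium (AT4G36430). At 5 days 1 was higher in the cambium than on medium (AT2G22420). The set medians were -0.20 and 0.26. Between sheath or cambium and stem 0 of 7 passed with limma, and 2 of the 21 values had an unadjusted p under 0.05. PRX52, PRX72, PRX25, AT4G33420 and AT5G51890 passed in none of these 5 comparisons. Enzymes upstream or beside the peroxidases were little covered by named probe sets. These were 2 of 19 monolignol genes (HCT, which forms hydroxycinnamoyl esters, and CCR2, a cinnamoyl-CoA reductase), 1 of 17 laccases (LAC16), 3 of 10 NADPH oxidases (RBOH, sources of superoxide) and 1 of 8 superoxide dismutases. Of 11 ascorbate peroxidases and catalases, 2 were measured (SAPX and TAPX, peroxidases of the chloroplast). None of these 9 genes passed with limma in the 5 comparisons of auxin with medium or of tissue with stem. There 5 of 45 values had an unadjusted p under 0.05, without a count over all probe sets to set beside it. SAPX rose in all 6 cultured groups over their untreated tissue, by 2.98-fold to 5.84-fold. With the GAPDH covariate its log2 differences were -0.31 to 1.18 at 2 days and 0.18 to 1.28 at 5 days, and it passed in none of the 6 (adjusted p = 0.25 to 0.918). Without the 3 narrow arrays it also passed in none (log2 1.18 to 2.15, adjusted p = 0.0617 to 0.365). SAPX was singled out after its values were seen.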

How the data were processed

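The authors deposited 1 table of log2 expression for 24 ATH1 arrays; per the submitters' processing notes RMA and limma were used (versions are not listed), and base 2 is taken from RMA. Per the labels' protocols, RNA went through 2 rounds of amplification, which weights transcripts towards their 3' ends. The 22810 probe sets include 64 controls; the other 22746 were tested. Members and gene lists were chosen with earlier results of these data known.

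Groups were compared with limma 3.58.1 in R 4.3.3: 1 mean per group over all arrays, eBayes (prior degrees of freedom 2.55, residual 16), two-sided, Benjamini-Hochberg adjustment over all probe sets, threshold 0.05, no minimum fold. SE are the model's, and p-values measure the spread between these arrays. The fit was tested on simulated data. Named genes were members called in the 5 main comparisons, up to 4 uncalled members per comparison with groups that do not overlap, the 6 of highest mean, the 6 of widest range, and neighbouring loci. The sample titles number the replicates and do not call them paired. The main fits took no pairs. The replicate block, run as an alternative, was read as applying where all 3 correlations of deviations from group means exceeded 0.1 in these same data. This held for sheath against stem at 2 days (0.126, 0.507 and 0.327). In untreated tissue the correlations were 0.597, -0.082 and 0.584, so no pairs were taken there. Alternatives were other array subsets, the replicate block, a filter on dim probe sets, quantile normalization, array weights and a GAPDH covariate. The number of arrays limits the precision.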

Additional observations from a re-analysis of the deposited data

Results flagged for a closer look

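The difference between NAA and medium changed with time for 2 members by a test of that change itself. For AT4G08780 it was 2.09 higher on the log2 scale in the 5-day comparison of cambium with sheath than in the 2-day sheath. For AT4G36430 it was 3.31 higher: NAA lay below medium at 2 days, and the 5-day groups overlapped. The second of these calls was lost in 9 of 12 fits without 1 array. The 5-day comparison also sets cambium against sheath, so time, cell type and auxin cannot be told apart in either.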

How the results depend on the processing

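With 3 arrays a group, most counts of peroxidase genes that passed were small and moved with the setting. The causes were not tested beyond what each setting itself changes. Brackets after a count give the share of all probe sets that passed in the same fit. With only the 6 arrays compared, few degrees of freedom are left. Then 0 passed for auxin at 2 days (0.00879%), 3 for the cambium against medium at 5 days (2.37%) and 0 for sheath against stem at 2 days (0.044%). The replicate block over all arrays left 0 for sheath against stem at 2 days (0.18%), where the block was read as applying. It moved no other of the 5 counts by over 1.5 times. The replicate block over the 6 arrays left 0 for auxin at 2 days (0.0044%), 1 at 5 days (1.75%) and 0 for sheath against stem at 2 days (0.114%). Array weights gave 6 for the untreated tissues (19.8%) and 3 for cambium against stem (2.86%). Quantile normalization gave 1 for cambium against stem (0.475%). Against untreated sheath it gave 2 for medium at 2 days (7.76%) and 2 for medium at 5 days (8.63%). For NAA at 2 days against untreated sheath it gave 0, where 2492 of 22746 probe sets passed. It gave 4 for the change of the auxin difference (1.5%). The filter on dim probe sets kept 14941 of them. It gave 2 for medium at 5 days against untreated (10.6%), 0 for NAA at 2 days against untreated (17.8%) and 5 for the change of the auxin difference (2.08%). Leaving out the 3 narrow arrays keeps 1 untreated sheath array. There the difference of AT5G15180 between NAA at 2 days and untreated sheath reversed to 0.021. The GAPDH covariate gave 3 for cambium against medium (3.39%), 1 for cambium against stem (0.567%) and 4 for the change of the auxin difference (6.24%). Against untreated tissue it gave 0 for medium (1.58%) and 0 for NAA (0.044%) at 2 days. It gave 1 for the cambium (0.488%) and 2 for the 5-day stem (5.49%) there.

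Leaving out 1 array at a time also moved the share of all probe sets that passed, given in brackets as its range. Counts were 0 to 2 for auxin at 2 days (0.044% to 0.444%) and 3 to 6 for cambium against medium (1.78% to 3.15%). They were 0 to 6 for the untreated tissues (0.0835% to 17.3%) and 0 to 2 for cambium against stem (0.11% to 0.55%). For sheath against stem at 2 days they were 0 to 1 (0.0791% to 0.246%). Against untreated tissue, medium gave 1 to 7 at 2 days (2.73% to 19.2%) and 0 to 11 at 5 days (2.28% to 24.7%). NAA at 2 days gave 0 to 19 (4.83% to 36.0%) and the cambium 4 to 11 (3.6% to 25.5%) there. The stem gave 0 to 1 at 2 days (1.49% to 4.62%) and 3 to 4 at 5 days (1.79% to 4.69%). The 7, 11, 19 and 11 came without untreated sheath replicate 1, where 19.2%, 24.7%, 36.0% and 25.5% of all probe sets passed. The change of the auxin difference gave 1 to 3 (0.374% to 1.35%). Those of the tissue difference gave 0 to 1 at 2 days (0% to 2.62%) and at 5 days (0.0044% to 4.84%). The fits of these changes without 1 array, and those against untreated tissue, were added after seeing the data. AT4G08780 passed in all alternatives run for the cambium against medium and against untreated sheath, and was lost with the GAPDH covariate for the 5-day stem against untreated (log2 1.30, adjusted p = 0.0782).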

Other observations

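Another 4 probe sets name 2 genes each, at least 1 of them a listed peroxidase, and their signal cannot be assigned to either gene. The probe set of AT4G37520 and AT4G37530 stood at 5.93, 6.78 and 5.47 in the sheath on NAA at 2 days, against 5.55, 5.21 and 4.90 on medium. It stood at 6.49, 5.35 and 6.50 in the 5-day stem on NAA, against 4.90, 5.09 and 3.77 in the untreated stem, without overlap, and did not pass (log2 1.53 ± 0.62, adjusted p = 0.22). The probe set of AT3G17070, which also names AT3G42570, fell relative to the untreated sheath on NAA at 2 days (log2 -0.75, adjusted p = 0.0307), in the cambium (-0.77, adjusted p = 0.0321) and on medium at 5 days (-0.79, adjusted p = 0.0354). Its untreated sheath arrays read 2.94, 3.93 and 3.88, the last pair being the narrow arrays. The probe sets of AT2G18140 with AT2G18150 and of AT2G38380 with AT2G38390 passed in no comparison.

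Among the NADPH oxidases, AT4G25090 was lower on NAA at 2 days than in the untreated sheath (log2 -0.87, adjusted p = 0.0392) and AT1G19230 was lower in the cambium (log2 -0.56, adjusted p = 0.0172); the narrow untreated arrays enter both values. These genes were chosen after their values were seen.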
